A study of Danio rerio with 45 samples.

Results

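Between 4 and 6 hours post fertilization (hpf), 200 genes rose in uninjected zebrafish explants and stayed level in explants kept in cycloheximide (CHX), an inhibitor of translation. They were taken from 31465 genes. Using group means of log2(CPM + 1), where CPM is a gene's counts scaled to a library total of 1000000, 21438 genes changed by no more than 0.5 in either direction between 4 and 6 hpf with CHX, and differed by no more than 1 between 10 pg ndr2 and control at 6 hpf. Keratin, ribosomal and mitochondrial gene symbols and a few other very abundant epithelial ones were kept out of that count. The 200 genes were chosen by their measured values, as those with the largest control rise that met both bounds. All 200 passed the filter on low counts.

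The study compared bulk RNA of animal-pole explants of AB embryos that received different amounts of ndr2 mRNA, which encodes the Nodal ligand Cyclops. A single animal-pole cell was injected at the 128-cell stage with 2, 6 or 10 pg, and the controls were not injected. These amounts follow the titles and treatment labels; the column names carry other figures, with no unit. The explants, taken from the animal side of the blastula, were kept in culture medium over agarose and harvested at 4, 5 or 6 hpf. CHX was given only with 10 pg, at 50 µg/µl from 20 min after injection to harvest, so each CHX group carries ndr2 too, and CHX without ndr2 is not analysed here. The 15 groups held 3 libraries each, and 2 libraries in 10 pg and in 10 pg with CHX at 4 hpf after an identical pair was set aside. Nothing says that libraries came from separate clutches, so p-values measure the spread between libraries, which may be technical.

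When the embryonic genome becomes active, maternal RNAs are cleared while new transcripts accumulate, first from genes that maternal proteins can switch on and then from genes that also need newly made factors. CHX separates these classes, because RNA that still accumulates under it needs no new protein. At these ages the outermost cells of the zebrafish blastula form the enveloping layer, a thin epithelium that seals the embryo, while the deep cells below it take on germ layer fates under Nodal and Bmp signals.

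Injected ndr2 followed its labels at 4 hpf, with 0.392 to 0.826 CPM in controls, 7.20 to 8.15 at 2 pg, 38.5 to 59.1 at 6 pg and 139 to 174 at 10 pg. At 5 hpf ndr2 held 11.1 to 21.2 CPM at 10 pg and 28.5 to 119 with CHX, which did not overlap. At 6 hpf 6 and 10 pg overlapped, at 10.8 to 24.0 and 14.8 to 22.4 CPM. Libraries of 5 hpf stood apart within their groups. On a scale where 0 is a gene's mean in the 4 hpf controls and 1 its mean in the 6 hpf controls, the median of the 200 genes stood at 0.981 in control replicate 2 at 5 hpf, against 0.674 in replicate 1 and 0.5 in replicate 3. It stood at 0.543 in replicate 2 of 6 pg, against 0.801 and 0.873 in the others. Replicate 2 was the highest of its group for 164 of the 200 genes in the controls and for 175 at 10 pg. Summed enveloping layer markers (13 genes, of which evpla and PPL are among the 200) moved with these libraries, at 19442 CPM in control replicate 2 against 9409 and 4999 in the others. The markers krt92, cyt1, cyt1l, krt8, krt17 and agr1 also met both bounds, with control rises above that of the last gene chosen. They were kept out by symbol only, so the sum is not separate from the values that chose the 200. The part of these markers in the results was not tested. Fewer cells of a type and less RNA per cell cannot be told apart in bulk RNA.

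The values that chose the genes are given as a description. The control rise had a median of 3.47 on the log2(CPM + 1) scale and ran from 2.54 to 8.39. The CHX change had a median of 0.09, and the difference between 10 pg and control at 6 hpf a median of 0.03. The last genes inside were PSMA6 (ENSDARG00000013966), eve1 and ENSDARG00000055690, and the first outside were rbbp8l (a rise of 2.51), si:ch211-162i8.5 (2.49) and ENSDARG00000097289 (2.47). In the controls, 113 of the 200 genes were below 1 CPM at 4 hpf and 23 were at 10 CPM or more, so most but not all started close to no RNA. At 6 hpf 32 were below 10 CPM, 128 between 10 and 100, and 40 at 100 or more.

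The 200 genes together held 0.088% to 0.120% of counts in the 4 hpf controls and 1.56% to 1.74% in the 6 hpf controls. With CHX their share was 0.105% and 0.117% at 4 hpf, 0.0756% to 0.139% at 5 hpf and 0.0991% to 0.145% at 6 hpf. No CHX library reached the lowest 5 hpf library without it, at 0.548%. With CHX, 105 of the genes were below 1 CPM on average at all 3 ages.

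**Figure D1:**
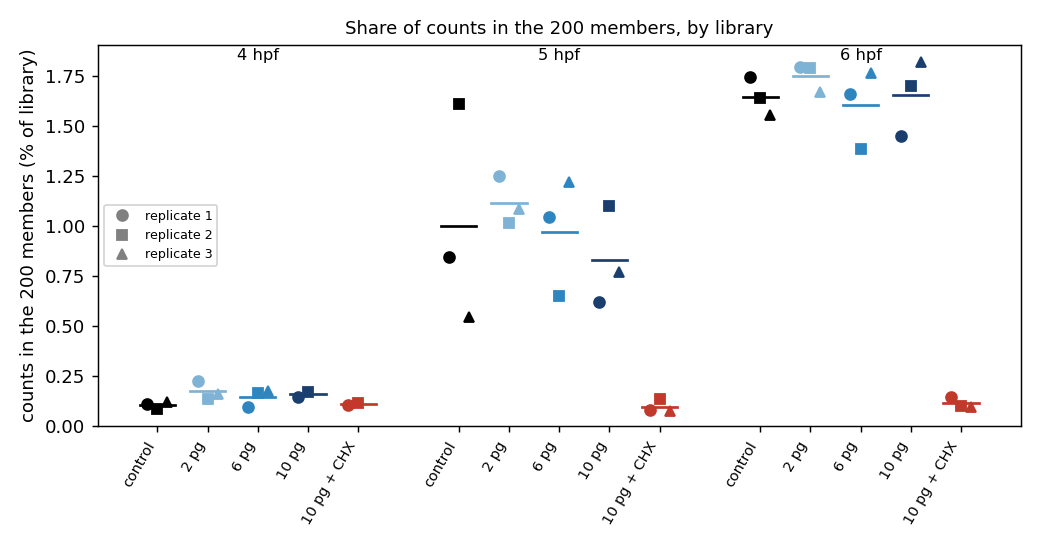
Share of each library's counts that fell in the 200 genes (vertical axis, percent), by age and treatment. Each symbol is 1 library, its shape gives the replicate number and lines are group means; all CHX libraries lie at or below 0.145%, and control replicate 2 at 5 hpf (1.61%) lies at the height of the 6 hpf libraries.

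The rise was then examined in explants that did not enter the choice. In the 2 and 6 pg groups, all 200 genes were higher at 6 than at 4 hpf by edgeR's quasi-likelihood test, where 33.7% of all genes tested were higher and 37.1% lower. Their median log2 change was 5.19, against -0.11 over all genes tested. For 187 of the 200, every 6 hpf library lay above every 4 hpf library, with no such count over all genes given beside it. The 10 pg groups gave 185 genes higher at 5 than at 4 hpf (23% of all genes), with a median of 3.75. A set chosen in the same way except that it also rose with CHX, by more than 1, had 200 and 196 genes higher in these comparisons, so neither count is particular to the genes that stayed level with CHX.

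The comparison of 10 pg with and without CHX at 5 hpf also used libraries outside the choice. The choice had, however, kept genes that stayed level with CHX from 4 to 6 hpf while they rose in the controls. Lower levels with CHX at 5 hpf were thus favoured in advance. With CHX, 187 of the 200 genes were lower and none was higher, where 24.2% of all genes tested were lower and 25% higher. The median log2 difference was -4.40, against 0.03 over all genes. For 181 genes every 10 pg library lay above every CHX library, again with no such count over all genes beside it. The number lower ran from 177 to 190 when any 1 of the 6 libraries was left out. It was 187 without CHX replicate 2, whose summed mesoderm and endoderm markers were 831 CPM against 98.6 and 134 in the other CHX libraries of that age. With CHX these markers held 458 and 601 CPM at 4 hpf and 509 to 1201 at 6 hpf. Replicates 1 and 3 of 5 hpf were thus the lowest CHX libraries for these markers, and the 4 hpf controls held 54.6 to 133 CPM. At 5 hpf with CHX, replicate 2 stood apart in other marker sums too. It held 430 CPM of epidermal ectoderm markers against 77.05 and 87.6, and 639 of neural ectoderm markers against 273 and 266. Enveloping layer markers were 356 against 234 and 202 CPM, and germ cell markers were lower, at 304 against 449 and 415. The part of these libraries was not tested beyond leaving each out. In the set that also rose with CHX, 171 genes were lower, with a median of -3.24; the difference between the sets was not tested.

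**Figure D2:**
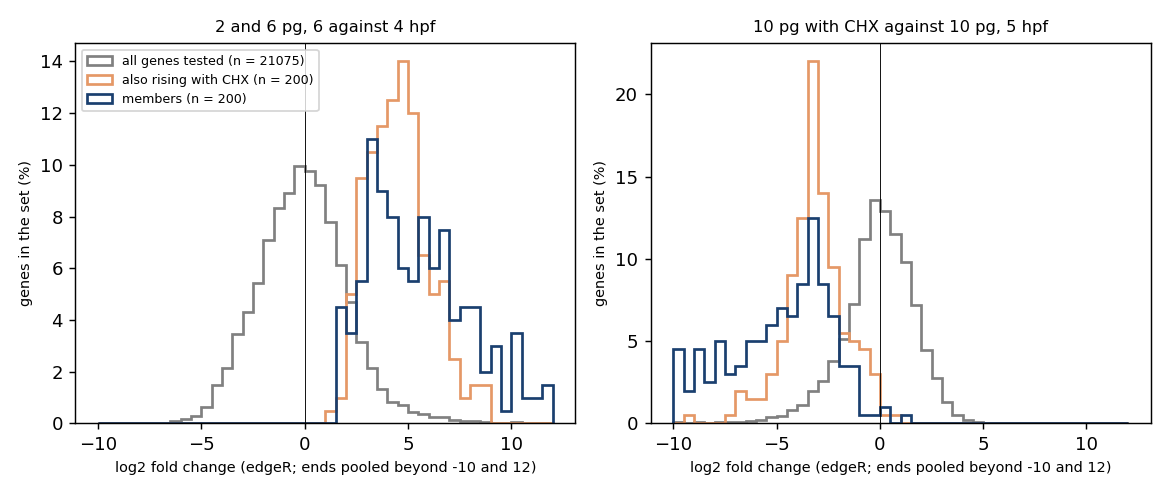
Distribution of log2 fold changes (horizontal axis) as the percentage of genes in each set (vertical axis), left for 6 against 4 hpf at 2 and 6 pg and right for CHX against no CHX at 10 pg and 5 hpf. Blue is the 200 genes, orange 200 genes with a control rise that also rose with CHX, and grey all 21075 genes tested; changes beyond -10 and 12 are pooled in the end bins, and the blue medians are 5.19 and -4.40.

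Genes known from the epithelial barrier made up 9 of the 200, and 5 of them were among the 50 largest control rises, where 22 genes had other or unknown functions. They were plakins, which tie intermediate filaments to junctions (evpla, PPL, eppk1), claudins, which seal tight junctions (cldnf, cldn8.2, cldn30), annexins, which bind membranes in the presence of calcium (anxa1c, anxa1d), and the crosslinking transglutaminase tgm5l. All 9 were higher at 6 than at 4 hpf at 2 and 6 pg, as were all of the 200 and 33.7% of all genes tested. With CHX at 5 hpf all 9 were lower, with a median log2 difference of -6.62. Nearly all of the 200 were lower there too, and 24.2% of all genes tested.

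The envoplakin gene evpla held 0.117, 0 and 0.155 CPM in the 4 hpf controls and 377, 394 and 304 in the 6 hpf controls. At 5 hpf it held 31.2, 135 and 79.9 CPM with 10 pg and 0.403, 0.532 and 0.468 with CHX added. The groups did not overlap, and the log2 difference was -7.79 ± 1.05 (approximate SE, adjusted p = 4.86e-07, edgeR). Epiplakin, eppk1, held 66.5, 95.2 and 70.2 CPM without CHX at 5 hpf and 0.179, 0.435 and 0.170 with it, again without overlap (log2 difference -8.53 ± 1.05, adjusted p = 9.01e-08). PPL, periplakin, differed from both in its start, with 24.4, 30 and 35.1 CPM already present in the 4 hpf controls, and 631, 590 and 451 at 6 hpf. With CHX it stayed near the starting level at 24.7, 20.7 and 27.4 CPM at 5 hpf, against 116, 307 and 182 without (log2 difference -3.39 ± 0.52, adjusted p = 3.04e-06).

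The claudin cldnf held 37.6, 74.7 and 35.2 CPM at 5 hpf with 10 pg, and 0.0447, 0.193 and 0 with CHX, so the groups were far apart (log2 difference -9.55 ± 1.03, adjusted p = 1.10e-08). The annexin gene anxa1c held no count in any of the 6 libraries of 2 and 6 pg at 4 hpf, and 77.0, 62.9 and 74.0 CPM at 2 pg and 44.5, 41.0 and 80.5 at 6 pg at 6 hpf. That rise is at least 2563-fold against a floor of 3 counts over the 4 hpf libraries (adjusted p = 1.09e-09). In the reference gene order (GRCz12tu) anxa1c lies next to anxa1d, another of the 200, which held 1 count in the same 4 hpf libraries.

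In all, 4 transcription factors known from epithelia were among the 200: znf750, a factor of epidermal differentiation in mammals, ovol1b, klf5l and TEAD3 (ENSDARG00000074321), a partner of Yap. All 4 were lower with CHX at 5 hpf, as were nearly all of the 200 and 24.2% of all genes tested. The znf750 gene held 41.5, 41.5 and 31.5 CPM in the 6 hpf controls and 0.117, 0.0416 and 0.103 at 4 hpf. At 5 hpf it was still low without CHX, with 1.40, 11.1 and 4.65 CPM at 10 pg, and lower again with CHX at 0.224, 0.145 and 0.0851 (log2 difference -5.53 ± 1.18, adjusted p = 0.000264).

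Glycosylation genes made up 7 of the 200, and 2 of them were among the 50 largest control rises. All 7 were lower with CHX at 5 hpf, with a median log2 difference of -6.44. So were 187 of the 200, and 24.2% of all genes tested. B3GNT5 (ENSDARG00000018971), which in mammals starts lacto-series glycolipids, held 39.7, 138 and 73.7 CPM at 10 pg and 5 hpf and 0, 0.290 and 0.0426 with CHX (log2 difference -9.89 ± 1.02, adjusted p = 5.36e-09). The galactosyltransferase genes b3galt10.2 and b3galt10.1 started differently. At 4 hpf b3galt10.2 had no count in the controls, whereas b3galt10.1 held 7.95, 4.29 and 5.32 CPM, and the CHX libraries of 5 hpf held 0, 0.967 and 0.213 CPM of the latter.

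Of 16 genes for lipids and prostaglandins, 15 were lower with CHX at 5 hpf. That is close to the share among the 200 genes as a whole, where 24.2% of all genes tested were lower. A pair of loci carries the symbol PTGS2, cyclooxygenase, the enzyme that begins prostaglandin synthesis. PTGS2 (ENSDARG00000004539) held 26.3, 72.7 and 44.8 CPM with 10 pg at 5 hpf and 0, 0 and 0.0851 with CHX, 3704 counts against 2, a ratio of 1576 with an interval of 436 to 13021 (adjusted p = 1.81e-08). PTGS2 (ENSDARG00000010276) held 55.5, 71.4 and 37.8 CPM against 0.358, 0.629 and 0.383 (log2 difference -7.23 ± 0.53, adjusted p = 1.43e-11). Both were near 0 with CHX and neither overlapped its untreated group.

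The ceramidase ACER1, which breaks down ceramide, held 6.78, 6.37 and 4.03 CPM in the 4 hpf controls and 357, 257 and 291 at 6 hpf. With CHX it held 6.57, 2.85 and 6.00 CPM at 5 hpf against 32.6, 103 and 48.6 without (log2 difference -3.90 ± 0.68, adjusted p = 1.93e-05). The exception was SLC27A4, a fatty acid transport protein important for the skin barrier in mammals. It held 3.05, 6.72 and 4.26 CPM at 10 pg and 4.2, 0.967 and 3.11 with CHX, which overlapped (log2 difference -1.07 ± 0.72, adjusted p = 0.227). The same gene held 31.8, 27.8 and 31.4 CPM in the 6 hpf controls, so all 3 libraries of 10 pg at 5 hpf were still far below that level. The apolipoprotein gene apoc1, which is on the wider list of yolk syncytial genes, held 31.4, 51.9 and 13.0 CPM at 5 hpf and 0.358, 6.34 and 0.426 with CHX (log2 difference -4.15 ± 0.93, adjusted p = 0.000424). The summed level of 6 other yolk syncytial markers, which do not include apoc1, lay between 0.59 and 13.9 CPM in all libraries.

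All 10 channel and carrier genes and all 12 genes for kinases and membrane trafficking were lower with CHX at 5 hpf. Their median log2 differences were -5.14 and -6.18. These counts are close to the share among the 200 genes as a whole (187), where 24.2% of all genes tested were lower. The potassium channel gene kcnk1a held 61.7, 134 and 111 CPM at 10 pg against 0.134, 0.193 and 0.340 with CHX (log2 difference -9.13 ± 0.66, adjusted p = 2.44e-11). The small GTPase gene rab25a, which in mammals acts in epithelial recycling, held 16.2, 44.7 and 29.6 CPM against 0.358, 0.580 and 0.766 (log2 difference -6.06 ± 0.67, adjusted p = 1.74e-08). In both cases the lowest library without CHX lay far above the highest with it.

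All 9 genes of ubiquitin ligases and of the TRIM family were lower as well, with a median of -4.41. Nearly all of the 200 genes were lower, and 24.2% of all genes tested. The TRIM family gene ftr83 held 6.93, 6.32 and 16.5 CPM in the 4 hpf controls and 753, 721 and 589 at 6 hpf. At 5 hpf it held 318, 601 and 331 CPM at 10 pg and 9.39, 5.46 and 5.96 with CHX (log2 difference -6.23 ± 0.63, adjusted p = 4.26e-09). Of 6 cytoskeletal genes 5 were lower, and AFAP1L2, an actin filament adaptor, was not.

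Another 15 genes act in chromatin, the nucleolus, transcription and translation. They were present at the start, with a median of 19.2 CPM in the 4 hpf controls, and their control rise had a median of 2.91, against 3.47 over the 200. All 15 were higher at 6 than at 4 hpf at 2 and 6 pg, as were all of the 200. All 15 were lower with CHX at 5 hpf, as were nearly all of the 200, with a median log2 difference of -3.08. Over all genes tested, 33.7% were higher and 24.2% lower in these comparisons.

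The nucleosome-binding proteins HMGN2 and hmgn1b are examples. HMGN2 held 81.6, 50.1 and 74.1 CPM in the 4 hpf controls and 567, 593 and 730 at 6 hpf, and with CHX 26.9, 49.6 and 25.8 at 5 hpf against 368, 488 and 343 at 10 pg (log2 difference -3.90 ± 0.36, adjusted p = 5.84e-10). For hmgn1b the control values were 208, 77.7 and 160 CPM at 4 hpf and 1002, 1037 and 1070 at 6 hpf. With CHX it held 15.3, 104 and 13.5 CPM at 5 hpf, 2 libraries below every 4 hpf control, against 434, 635 and 679 without (log2 difference -4.11 ± 0.57, adjusted p = 7.01e-07). The RNA polymerase III subunit gene polr3gla was below its 4 hpf control level too, with 2.1, 10.8 and 1.36 CPM under CHX at 5 hpf. The 4 hpf controls held 59.0, 19.0 and 46.4 CPM. With CHX it was already more than 2-fold below them at 4 hpf, on the CPM + 1 scale. The nucleolar genes GNL3, RRP15, UTP14C and PAK1IP1, which act in ribosome assembly, had log2 differences of -2.49 ± 0.33, -2.59 ± 0.39, -2.35 ± 0.27 and -3.03 ± 0.31, all past the threshold.

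**Figure D3:**
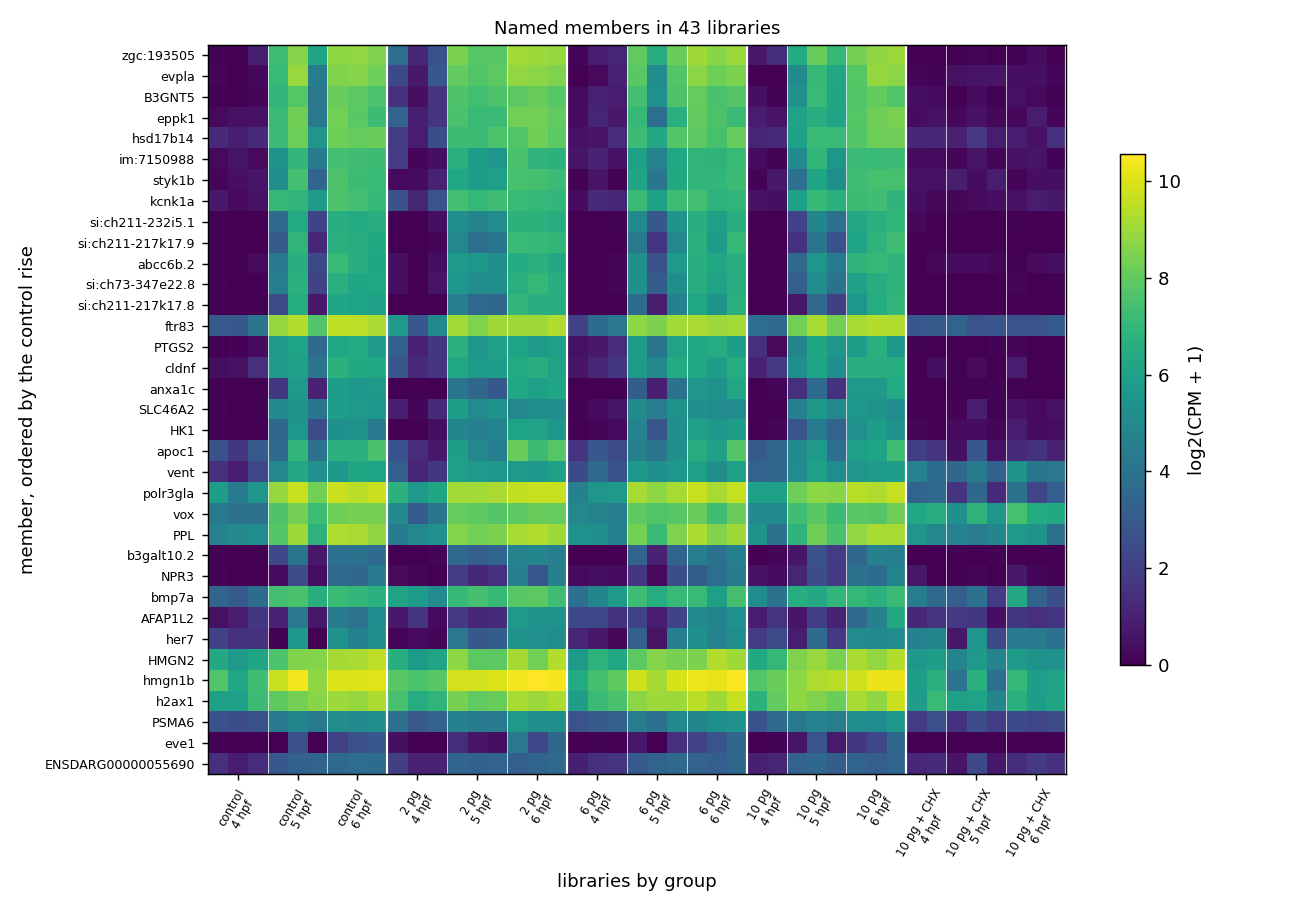
Level of 35 of the 200 genes, log2(CPM + 1) by colour, in 43 libraries ordered by treatment and age. Rows follow the size of the control rise; evpla, eppk1 and cldnf are dark in the 4 hpf controls and in all CHX columns, whereas PPL, HMGN2, hmgn1b and h2ax1 are visible in both, and vox, vent and her7 are lit in the CHX columns.

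Bmp pathway and ventral or tail factors made up 5 of the 200 genes. All 5 were lower with CHX at 5 hpf, as were nearly all of the 200. They were the ligand gene bmp7a, the Bmp antagonist BAMBI (ENSDARG00000055381), the ventral homeobox repressors vent and vox, which are neighbours in the reference gene order, and the homeobox gene eve1. The ligand bmp7a held 95.0, 82.0 and 122 CPM at 10 pg and 8.27, 14.3 and 2.72 with CHX (log2 difference -3.92 ± 0.71, adjusted p = 3.38e-05). At 6 hpf, however, CHX replicate 1 held 82.3 CPM of bmp7a and the others held 9.35 and 4.89. In the whole list of Bmp pathway genes, 8 of 22 tested were lower with CHX at 5 hpf and 4 were higher, where 24.2% of all genes tested were lower and 25% higher, with a median log2 difference of -1.14.

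For vox and vent the level with CHX was already above the controls at 4 hpf. At 4 hpf vox held 18.5, 13.9 and 14.8 CPM in the controls, 31.3 and 31.9 at 10 pg and 80.3 and 94.5 with CHX, so the CHX libraries were above both. By 5 hpf the order had turned, with 158, 231 and 148 CPM at 10 pg and 39.0, 115 and 46.4 with CHX (log2 difference -1.78 ± 0.39, adjusted p = 0.000348). The gene vent went the same way, with 1.76, 0.749 and 3.92 CPM in the 4 hpf controls and 24.8 and 12.4 with CHX, then 32.9, 63.4 and 33.9 at 5 hpf with 10 pg against 10.6, 19.8 and 8.64 (log2 difference -2.1 ± 0.55, adjusted p = 0.002). In all, 5 of the 200 genes were more than 2-fold above the controls with CHX at 4 hpf on the CPM + 1 scale, namely vent, vox, RGCC, her7 and ENSDARG00000112942. These levels entered the choice of the genes and were not tested, and the CHX groups also carry ndr2. RGCC held 2.27, 2.45 and 3.41 CPM in the 4 hpf controls, 16.3 and 14.1 at 10 pg and 27.2 and 21.0 with CHX. A further 4 genes, polr3gla, plekhf1, zgc:153911 and b3galt10.1, were more than 2-fold below the controls at that age.

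The segmentation clock repressor her7 was the least settled. It held 3.25, 1.87 and 1.96 CPM in the 4 hpf controls and 23.9 and 26.2 with CHX, then 0.626, 45.8 and 4.13 with CHX at 5 hpf and 19.6, 19.9 and 13.4 at 6 hpf. The control libraries at 5 hpf held 0.0835, 48.6 and 0.0399 CPM, so replicate 2 carried nearly all of it in both groups. At 10 pg and 5 hpf it held 0.736, 11.8 and 2.43 CPM, which overlapped the CHX group (log2 difference 1.33 ± 1.24, adjusted p = 0.391). RGCC, a cell cycle regulator, was also high in CHX replicate 2 at 5 hpf, with 3.26, 33.8 and 1.66 CPM under CHX against 41.4, 25.8 and 11.3 (log2 difference -1.39 ± 0.64, adjusted p = 0.0719).

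**Figure D4:**
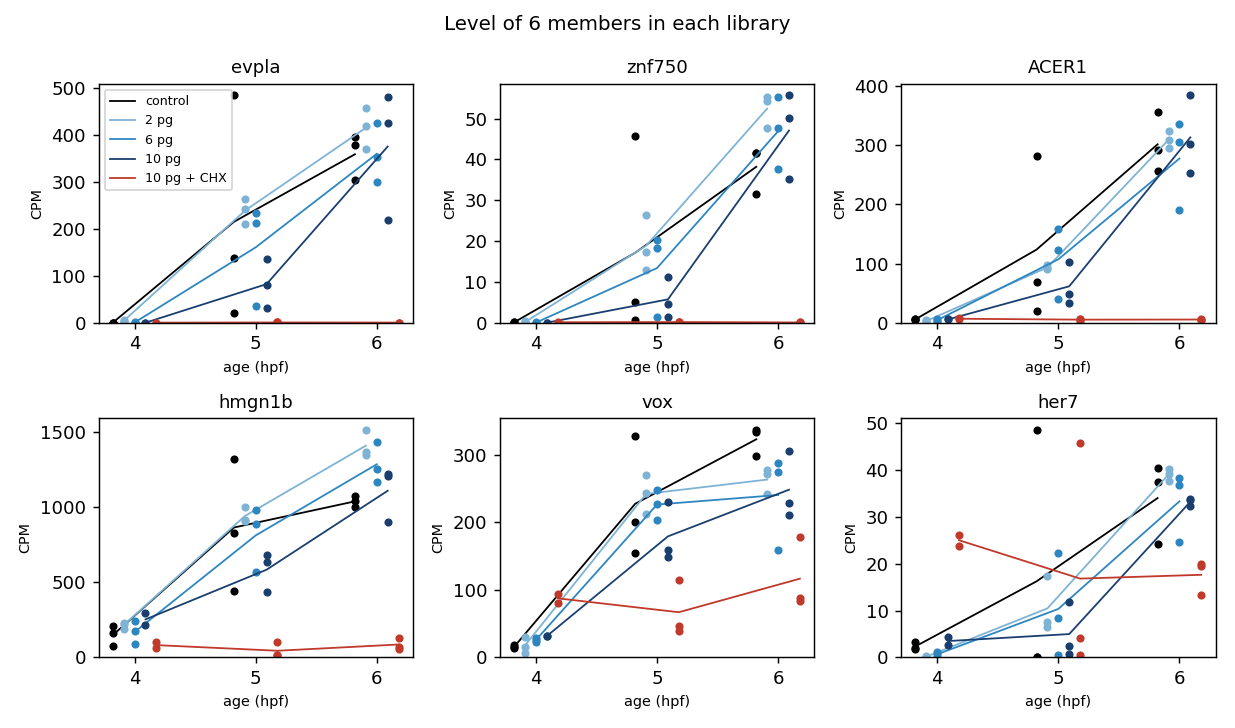
CPM (vertical axis) of 6 of the 200 genes in every library by age (horizontal axis, hpf), coloured by treatment, with lines through group means. With CHX, evpla and znf750 stay at the floor and ACER1 stays near its low 4 hpf control level. The mean of hmgn1b with CHX lies below its 4 hpf control mean at 5 hpf and already at 4 hpf, and vox and her7 start above the controls.

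The other genes not called lower with CHX at 5 hpf were MLLT1 (ENSDARG00000031709), ppp1r9alb, SH3D19, AFAP1L2, zgc:174938, si:ch211-51n3.1, si:ch211-51a19.5, si:dkey-103d23.3, ENSDARG00000006577 and ENSDARG00000112942, besides SLC27A4, her7 and RGCC. The pair si:ch211-51a19.5 and si:dkey-103d23.3 was high in CHX replicate 1 and, at a lower level, in CHX replicate 3. The former held 59.3, 1.55 and 12.8 CPM with CHX and 22.9, 8.71 and 16.8 without, and the latter 42.8, 2.13 and 13.4 with CHX and 17.5, 9.28 and 17.4 without. CHX replicate 1 was the highest of the 6 libraries for both, and their CHX levels at 4 and 6 hpf were all below 2 CPM.

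The remaining 107 genes had other or unknown functions, and 96 of them were lower with CHX at 5 hpf. That is close to the share among the 200 genes as a whole, where 24.2% of all genes tested were lower. The cytokine gene tnfb held 10.8, 14.3 and 6.35 CPM at 10 pg against 0.0447, 0 and 0.0851 with CHX, 831 counts against 3, a ratio of 236 with an interval of 80.4 to 1146. Its pathway's inhibitor nfkbiaa held 15.7, 24.2 and 18.5 CPM against 0.626, 3.63 and 1.36 (log2 difference -3.75 ± 0.61, adjusted p = 5.42e-06). Metabolic enzymes were there too, with uox, urate oxidase, at 0 in all 3 CHX libraries and at 0.280, 1.87 and 0.981 CPM without, a fold of at least 22.7, and CTH (ENSDARG00000074301), which makes cysteine, at 3.58, 11.7 and 4.17 CPM against 22.8, 54.6 and 30.3 (log2 difference -2.85 ± 0.44, adjusted p = 3.12e-06). The largest control rise was that of zgc:193505, a gene of unnamed function, with 86.3, 287 and 129 CPM at 10 pg and 5 hpf and 0, 0.0967 and 0 with CHX, 13005 counts against 2, a ratio of 5534 with an interval of 1532 to 45705.

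The wider list of enveloping layer genes was tested too, a list drawn up with earlier results known. Of 26 tested, 24 were higher at 6 than at 4 hpf at 2 and 6 pg, where 33.7% of all genes were higher. With CHX at 5 hpf 21 were lower and 1 higher, where 24.2% of all genes were lower and 25% higher, with median log2 values of 5.26 and -6.33; 4 of the list are among the 200. Its keratin genes krt4, krt92 and cyt1 had CHX log2 differences of -9.10 ± 0.87, -12.62 ± 1.12 and -10.74 ± 1.22. Of these, krt92 and cyt1 had control rises of 8.88 and 8.38 and met both bounds of the choice. They are among 13 genes above its cut that were kept out by symbol only. The list is therefore not separate from the values that chose the 200. Summed enveloping layer markers held 221 to 411 CPM in the 4 hpf controls, 16266 to 21348 in the 6 hpf controls and 177 to 481 in all CHX libraries. Against the same shares, 20 of 30 early zygotic genes were lower with CHX and none higher. In lists of inherited RNAs, 18 of 29 maternally loaded genes and 8 of 13 germ cell genes were higher with CHX and 4 and 2 lower, again where 25% of all genes were higher and 24.2% lower. Since levels are shares of each library, these lists and the 200 genes are not independent of each other, and the part of cell composition was not tested.

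The rise was taken apart into its 2 hours in the 2 and 6 pg groups. From 4 to 5 hpf 199 of the 200 genes were higher (29% of all genes), with a median log2 change of 3.88, and the gene that was not was AFAP1L2. From 5 to 6 hpf 106 were higher and 1, zgc:153911, lower (15% and 20% of all genes), with a median of 1.00. The step from 5 to 6 hpf was smaller than that from 4 to 5 hpf for 158 genes and larger for 1 (15.8% and 10.2% of all genes), with a median difference of -2.92. In the set that also rose with CHX it was smaller for 158 genes as well.

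On the linear scale the 2 hours were closer. The median gene had covered 53.6% of its 4 to 6 hpf gain in CPM by 5 hpf at 2 and 6 pg (quartiles 33.4% and 80.4%), and 51.1% in the controls. The number higher from 5 to 6 hpf was 40 at 2 pg alone and 40 at 6 pg alone, and 77 without replicate 2 of 6 pg at 5 hpf.

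AFAP1L2 was called higher from 5 to 6 hpf (log2 change 4.37 ± 0.70, adjusted p = 1.28e-05) and not from 4 to 5 hpf (0.65 ± 0.66, adjusted p = 0.408). It held 0.633, 2.00 and 0.256 CPM at 4 hpf, 2.32, 1.30 and 1.45 at 5 hpf and 51.2, 42.6 and 41.6 at 6 hpf at 2 pg. At 6 pg the values were 4.05, 3.91 and 1.90, then 3.49, 0.822 and 3.40, then 31.7, 25.7 and 39.6. The 5 hpf libraries lay near the 4 hpf ones at both doses, and with the doses together the later step was larger by 3.72 ± 1.2 (adjusted p = 0.021). The adjusted p was 0.199 at 2 pg alone, 0.142 at 6 pg alone and 0.0525 with a replicate block within each age. The adjusted p was 0.0532 without replicate 2 of 2 pg and 0.0591 without replicate 2 of 6 pg at 5 hpf. The homeobox gene eve1 held 0.341, 0.0488 and 0 CPM at 4 hpf, 1.58, 0.480 and 0.302 at 5 hpf and 17.6, 3.93 and 10.7 at 6 hpf at 2 pg, so the 6 hpf libraries were the only ones above 2 CPM. With the doses together, eve1 was called higher from 4 to 5 hpf as well (log2 change 4.21 ± 1.35, adjusted p = 0.00998, edgeR). Its later step was not called different from the earlier one (-0.65 ± 1.58, adjusted p = 0.81). In contrast zgc:153911 was lower at 6 than at 5 hpf at both doses, with 153, 108 and 117 CPM at 5 hpf and 97.0, 45.5 and 53 at 6 hpf at 6 pg, and 86.5, 141 and 125 then 24.9, 78.5 and 41.8 at 2 pg.

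Dose was tested in libraries that the choice had not used. The choice had, however, kept only genes that differed by no more than 1 between 10 pg and control at 6 hpf. A lack of dose differences at 6 hpf was thus favoured in advance. At that age no gene of the 200 differed between 6 and 2 pg by edgeR or DESeq2. By edgeR no other gene tested did so either (0% of all genes in either direction), so this is not particular to the 200. An unadjusted p under 0.05 was reached by 1 gene, higher at 6 pg, and by 0 lower ones, and the median log2 difference was -0.15. At 5 hpf no gene of the 200 differed between 10 pg and control by either tool (0.223% of all genes higher, 0% lower). An unadjusted p under 0.05 was reached there by 2 of the 200 with a positive and 29 with a negative difference. Over all 21075 genes tested the numbers were 391 and 527, so the negative share was larger among the 200. A log2 difference below 0 was found for 154 of the 200, with a median of -0.48, against -0.04 over all genes tested. The 200 genes moved together between libraries of this age. Replicate 2 was the highest of its group for 164 of them in the controls and for 175 at 10 pg. These counts of genes are therefore not counts of independent results. Values for evpla were 138, 484 and 21.2 CPM in the controls against 31.2, 135 and 79.9 at 10 pg, so the groups overlapped, with control replicate 2 far above the rest (log2 difference -1.67 ± 0.74). A p that misses the threshold does not show that the groups are alike.

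At 4 hpf the mean of the ndr2 groups was above that of the controls for 161 of the 200 genes at 2 pg, 145 at 6 pg and 126 at 10 pg, given as a description because the 4 hpf controls entered the choice. Choosing the largest rises over those controls favours genes with low values in them, and so favours this direction. No such counts over all genes are given beside these. The bmp7a gene held 71.1, 54.2 and 33.0 CPM at 2 pg, 13.5, 27.2 and 53.5 at 6 pg, 34.4 and 15 at 10 pg and 9.91, 6.87 and 12.4 in the controls. The order of the groups did not follow the dose. Enveloping layer markers were higher in the same libraries, at 749 to 1667 CPM at 2 pg, 405 to 819 at 6 pg and 708 to 721 at 10 pg against 221 to 411 in the controls. Their sum is not separate from the values that chose the 200, and their part was not tested.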

How the data were processed

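The authors deposited raw counts per Ensembl gene for 31465 genes in 45 libraries. STAR, featureCounts, DESeq2 and build GRCz11 are named, without versions, per the submitters' processing notes. Neither the annotation release nor the handling of strand is stated in the labels, so reads of overlapping genes may be shared. Symbols came from a table that matched 28965 genes. Library totals ran from 12137856 to 28551066 counts (median 20959131). At 4 hpf the third 10 pg library and the third CHX library held equal counts in every gene, and both were set aside, leaving 43.

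The 200 genes, the functional groups and the gene lists were chosen with earlier results of these data known. Levels are counts scaled to a library total of 1000000 (CPM), computed from the deposited counts. A single model with a coefficient for each group was fitted by edgeR 4.0.16 (R 4.3.3, limma 3.58.1) to the 21075 genes that filterByExpr kept at a minimum count of 10 and a minimum total of 15. It used TMM factors and robust dispersions and left 28 degrees of freedom. p-values from edgeR's quasi-likelihood test were adjusted by Benjamini and Hochberg over all genes in each of 8 comparisons, at a threshold of 0.05. The SE after each ± is approximate, being the size of the log2 change divided by the square root of that test's F statistic. Where a group held almost no counts, both the log2 change and this SE rest on few counts. The fit was tested on simulated counts. No test was made on contrasts that chose the genes or share a library group with them.

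Genes described by name were, first, those with the largest rise in the controls, with the highest control level at 6 hpf, in the fixed lists, with the largest called changes, or at the edge of the choice. Others, named for their known function or their exception, were chosen after their values were seen. Where the lower group held no count, a fold is a bound against 3 counts over the group. Where it held 1 to 3 counts, a ratio of summed counts is given with an exact 95% interval. Both cover counting error only.

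DESeq2 1.42.0, RLE scaling, library totals, no count filter, single doses, a replicate block and leaving out each library were alternatives. Same-numbered libraries deviated together over 10236 genes in 2 of the comparisons: all 6 pairs of the 4 and 6 hpf groups at 2 and 6 pg (correlations 0.11 to 0.22) and all 3 pairs of the 10 pg groups with and without CHX at 5 hpf (0.38 to 0.51). The labels give only the numbers, so this pairing comes from the data. A planned search of promoters and gene structure was not run.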

Additional observations from a re-analysis of the deposited data

Results flagged for a closer look

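In the 2 and 6 pg groups, the step from 5 to 6 hpf differed from the step from 4 to 5 hpf by a test of the difference itself for 158 genes, in which the later step was smaller, and for 1 gene, AFAP1L2, in which it was larger. Both counts come from edgeR's quasi-likelihood test over all genes. The 3 libraries of 6 pg at 5 hpf were not at 1 height for these genes, with replicate 2 at a median of 0.543 of the way from the 4 to the 6 hpf controls and the others at 0.801 and 0.873. The part of that library was not tested beyond leaving it out. Of all genes tested, 15.8% had a smaller later step and 10.2% a larger one. In the set that also rose with CHX the later step was smaller for 158 genes as well. The count is thus not particular to genes that stayed level with CHX. On the linear scale, their median gene had covered 53.6% of its CPM gain by 5 hpf. By edgeR, AFAP1L2 had an adjusted p of 0.199 at 2 pg alone and 0.142 at 6 pg alone. With a replicate block within each age the adjusted p was 0.0525.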

How the results depend on the processing

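No count or named value changed direction under any alternative. At 2 pg alone and at 6 pg alone, the genes higher from 5 to 6 hpf numbered 40 and 40, those with a smaller later step 84 and 101, and those with a larger one 0 and 0. Single doses were tested within the same fit of 43 libraries, in contrasts that compare fewer libraries. The larger later step was also lost with a replicate block within each age, an alternative chosen after seeing the data, which gave 0. Choosing genes with a CHX change within 0.25 kept 125 of the 200. When 1 library was left out, the ranges were 199 to 200 genes higher from 4 to 6 hpf, 199 to 199 from 4 to 5 hpf and 77 to 118 from 5 to 6 hpf at 2 and 6 pg, 133 to 161 and 0 to 1 for a smaller and a larger later step, 139 to 186 for 10 pg from 4 to 5 hpf, and 177 to 190 lower and 0 to 0 higher with CHX. Dose comparisons stayed at 0, and the choice itself kept 167 to 200 genes. With the replicate block, 200 genes were higher from 4 to 6 hpf and 186 lower with CHX, and no other count moved by over 1.5 times. Library totals alone shifted the median of all genes from -0.11 to -0.70 (4 to 6 hpf) and from 0.03 to 0.36 (CHX), and the medians of the 200 from 5.19 to 4.58 and from -4.40 to -4.04. Of 3689 values of 35 named genes, 3557 kept their call and 132 lost it. Levels under 1 CPM rest on few counts.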
